A study of Mus musculus with 12 samples.

Results

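The ERG transgene was compared with no transgene over both Trp53 states in 12 mouse prostates. Members were chosen by genotype label: the 6 libraries labelled Pb-ERG or Pb-ERG, Trp53pc-/- formed the transgene side, the 6 labelled WT or Trp53pc-/- formed the other side, and Trp53 deletion was a covariate. All were bulk RNA-seq libraries of prostate tissue from C57BL/6 mice aged 15 months, with 3 mice in each of the 4 genotypes. In Pb-ERG mice the TMPRSS2-ERG (T2-ERG) transgene is driven by the probasin promoter, and in Trp53pc-/- mice probasin-driven Cre4 recombinase deletes floxed Trp53. That promoter is active in prostate epithelium, so transgene expression and Trp53 deletion are directed there and not to stroma, vessels or white blood cells. WT mice carry neither change, and the Pb-ERG, Trp53pc-/- mice, called double below, carry both. Of 17623 genes tested, the description centres on the 2173 whose 6 transgene values all lay on the same side of the other 6.

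ERG is a transcription factor of the ETS family, whose members share a DNA-binding domain that reads a GGAA core. In normal tissue it is a factor of endothelial cells and some blood cells. In human prostate cancer, fusion of TMPRSS2 to ERG puts ERG under androgen control in luminal epithelium, and the mouse transgene was built to copy that state. The prostate itself is a secretory gland: distal luminal cells fill the lumen with a few proteins at very high level, while proximal luminal cells near the urethra express Ly6a, Psca and Krt4.

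Levels are given in FPKM, fragments scaled to exon length and to the library total. Differences are transgene minus no transgene on the log2(FPKM + 1) scale with their SE, which understates the change of genes near 0. Adjusted p is the limma p after Benjamini-Hochberg adjustment over all 17623 genes. The study's threshold of 0.001 is given beside counts, and "rose" and "fell" are used for an adjusted p under 0.05.

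Erg, on chromosome 16 (GRCm38, chr16:95359169-95586593, minus strand), separated the 2 sides. Its level was 0.268 to 0.925 FPKM (median 0.601) without the transgene and 8.26 to 27.1 FPKM (median 14.0) with it. All 6 transgene libraries were above all others, the difference was 3.30 ± 0.26 (adjusted p 4.83e-05), and an exact permutation test within Trp53 states gave p = 0.005, the smallest of its 400 assignments. The value counts all fragments assigned to mouse Erg, so transgene and endogenous transcripts cannot be told apart. Trp53 (chr11:69580359-69591873) did not separate the Trp53 states. It was 8.87 to 11.3 FPKM in WT, 5.32 to 10.6 FPKM in libraries labelled Trp53pc-/-, 13.4 to 22.3 FPKM in Pb-ERG and 11.2 to 21.5 FPKM in double libraries. A value over the whole gene in whole tissue does not show the deleted exons. Across the transgene contrast Trp53 rose by 0.88 ± 0.19 (adjusted p 0.00775), although 1 transgene library lay just under the highest of the others.

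The 12 libraries held 19747635 to 32565774 fragments (median 23786832), and totals did not differ detectably by transgene (exact permutation p = 0.375). The composition did differ. The 17 genes that took more than 1% of some library, among them the secreted proteins Tgm4, Pbsn, Sbp and Svs2, held 24% to 34.7% of fragments (median 28.3%) without the transgene and 3.04% to 25% (median 10.3%) with it (exact permutation p = 0.005). FPKM is a share of the total, and the median of all 17623 differences was 0.26 as deposited. It was 0.061 after scaling to the total without the 17 genes. Median-of-ratios scaling, which centres the library ratios by construction, gave 0.0043. The part of the 17 genes in this shift was not tested. Epithelial markers were high everywhere: Krt18 was 284 to 437 FPKM without and 290 to 493 FPKM with the transgene, and Epcam was 163 to 270 FPKM over all 12. A pair of libraries stood apart. Pb-ERG replicate 1 kept 25% of fragments in the 17 genes, inside the range of the prostates without the transgene, and double replicate 3 kept only 3.04%.

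**Figure D1:**
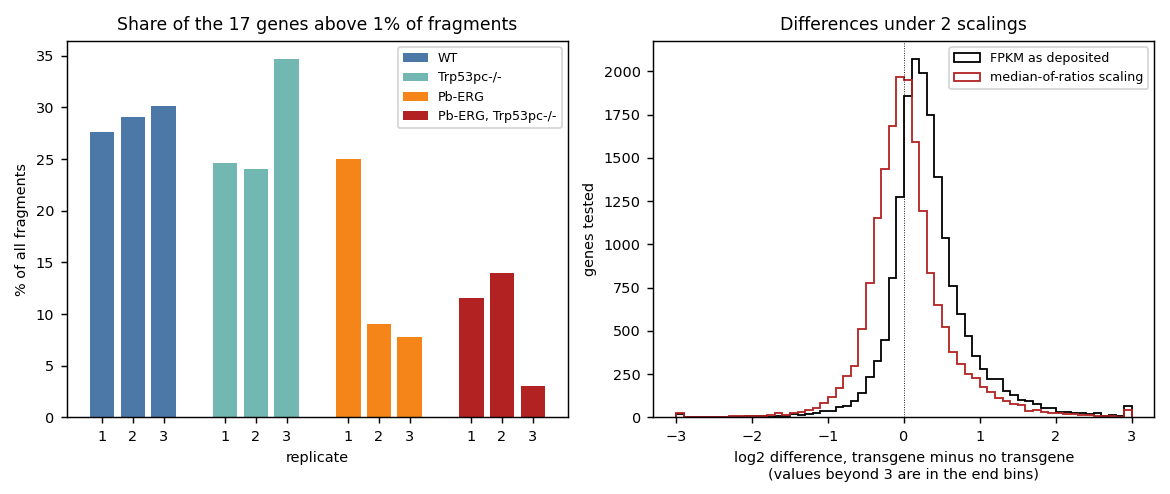
Left, percent of all fragments in the 17 genes above 1% of a library, with 1 bar per prostate. Right, histogram of the log2 difference of the 17623 tested genes for FPKM as deposited (black) and after median-of-ratios scaling (red). The share ran from 24% to 34.7% without the transgene. Median-of-ratios scaling centres the differences near 0 by construction.

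With the transgene far more genes were higher than lower. At an adjusted p under 0.001, 200 genes rose and 5 fell (1.16% of genes tested, 1.13% and 0.0284%), and at 0.05 the counts were 5098 and 378 (31.1%). For 2076 genes all 6 transgene values lay above the other 6 (11.8%), and for 97 they lay below (0.550%). The rule itself makes these genes differ, so their differences are a description. The median difference was 0.79 (quartiles 0.54 and 1.21) among the 2076 and -0.82 among the 97. Of the 2076, 732 differed by at least 1 and 143 by at least 2 on the log2 scale, 1983 passed the 0.05 threshold and 199 the 0.001 threshold, and 66 had at most 3 fragments in each library without the transgene. Of the 97, 36 differed by at least 1 and 6 by at least 2, with 89 and 5 past the same thresholds. The excess of higher genes depended on scaling. After median-of-ratios scaling 1010 genes lay fully above and 668 fully below, of which 989 and 96 were among the 2076 and the 97, and the calls at 0.05 became 2126 higher and 1717 lower. A gene named below as higher is thus higher relative to the whole library, and the rescaled call is given where a named gene loses it.

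Members at the edge of the rule show how narrow it can be. Just inside on the high side was Smndc1, a splicing factor, at 8.79 to 13.7 FPKM without and 13.7 to 18.2 FPKM with the transgene. After median-of-ratios scaling its difference was 0.023 (limma adjusted p 0.855). Just outside was the immunoglobulin segment Ighv1-12, at 0 in all 6 libraries without and from 0 to 24.2 FPKM with the transgene. On the low side Limch1 was just inside (16.6 to 39.1 FPKM without, 4.69 to 16.6 FPKM with) and Gcat, an enzyme of threonine breakdown, just outside (4.09 to 8.01 and 2.26 to 4.09 FPKM).

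The same pair of libraries set many of the extremes. Pb-ERG replicate 1 held the lowest transgene value in 1303 of the 2076 higher members (62.8%), and double replicate 3 held the highest in 1103 (53.1%). Among the 97 lower members, double replicate 3 held the lowest value in 54 (55.7%). Without Pb-ERG replicate 1, the calls at 0.001 were 1033 higher and 15 lower, and 4394 genes lay fully above and 145 fully below. Leaving out both libraries gave 1398 higher and 17 lower calls, and 4979 and 172 genes without overlap. Leaving out libraries cannot lower a count of genes without overlap, so the direction of that change was fixed. Higher members were expressed at a median of 2.51 FPKM without the transgene, against 3.90 FPKM for all genes tested, and lower members at 11.1 FPKM. With the transgene these medians were 6.31, 5.86 and 4.12 FPKM. The rule selects on these levels, so their order is a description. Of members with a RefSeq type, 96.4% of the higher and 84.3% of the lower were protein coding, against 88.1% of all tested.

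The 12 largest rises included 7 of the listed epithelial defence and acute-phase genes: Reg3b, Reg3g, Saa3, Wfdc18, Wfdc2, Lcn2 and Ltf. The list was chosen with earlier results of these data known, so this overlap is a description. Reg3b and Reg3g encode lectins that kill or bind bacteria at mucosal surfaces, and their genes lie near each other on chromosome 6. Lcn2 encodes lipocalin 2, which withholds iron from bacteria. Qsox1, a sulfhydryl oxidase that forms disulfide bonds in secreted proteins, had the smallest adjusted p of all genes. The 250 bases before the RefSeq start of these 4 genes (GRCm38.p6, gene strand, 5′ to 3′) are printed because Reg3b and Reg3g had the largest differences, Qsox1 the smallest adjusted p and Lcn2 the highest level among these defence genes without the transgene. Capitals mark matches on either strand to AGGAAG or CCGGAAG, short words that contain the ETS core, and the reverse complement is printed where the match is on the other strand.

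Qsox1, chr1:155812900-155813149, minus strand: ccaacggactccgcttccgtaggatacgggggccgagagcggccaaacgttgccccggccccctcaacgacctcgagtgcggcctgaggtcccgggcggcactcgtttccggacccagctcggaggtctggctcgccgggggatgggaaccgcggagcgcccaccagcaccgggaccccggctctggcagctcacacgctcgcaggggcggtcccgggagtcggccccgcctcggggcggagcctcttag
Reg3b, chr6:78370635-78370884, plus strand: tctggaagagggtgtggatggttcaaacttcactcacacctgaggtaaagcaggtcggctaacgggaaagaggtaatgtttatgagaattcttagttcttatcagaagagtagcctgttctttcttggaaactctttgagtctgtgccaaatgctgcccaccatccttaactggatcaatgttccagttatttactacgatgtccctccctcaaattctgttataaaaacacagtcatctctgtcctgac
Reg3g, chr6:78468875-78469124, minus strand: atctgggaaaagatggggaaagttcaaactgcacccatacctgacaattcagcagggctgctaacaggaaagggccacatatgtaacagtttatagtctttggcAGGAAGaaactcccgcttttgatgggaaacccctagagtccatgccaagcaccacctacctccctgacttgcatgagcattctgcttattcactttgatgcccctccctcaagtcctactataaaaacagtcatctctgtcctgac
Lcn2, chr2:32387740-32387989, minus strand: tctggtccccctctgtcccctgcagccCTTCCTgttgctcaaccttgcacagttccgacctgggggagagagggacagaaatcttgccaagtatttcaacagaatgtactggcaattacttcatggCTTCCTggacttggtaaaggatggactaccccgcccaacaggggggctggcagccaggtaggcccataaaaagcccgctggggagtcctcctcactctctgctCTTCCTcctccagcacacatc

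The window of Lcn2 held 3 matches to AGGAAG, that of Reg3g held 1, and those of Qsox1 and Reg3b held neither word. AGGAAG stood in 28.8% and CCGGAAG in 12.3% of the 11668 windows available for tested genes, and in 29.9% and 10.6% of the 1511 windows of higher members. Only 66.2% of tested genes and 72.8% of higher members had a window, under the 80% set as a minimum, so a comparison of the shares is void. A match is a description of letters and not a site.

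Reg3b was 0 to 0.400 FPKM (median 0.0611) without the transgene and 183 to 2527 FPKM (median 496) with it, a difference of 9.01 ± 0.53 (adjusted p 1.02e-05). Reg3g went from 0.447 to 1.51 FPKM (median 1.10) to 193 to 1829 FPKM (median 792), a difference of 8.43 ± 0.54. Every transgene library, Pb-ERG replicate 1 included, thus held both transcripts at 183 FPKM or more, against 1.51 FPKM at most in the others. Saa3, an acute-phase serum amyloid, was 0.561 to 1.33 FPKM without and 39.4 to 291 FPKM with the transgene (6.00 ± 0.38). Lcn2 was already expressed without the transgene, at 7.64 to 39.1 FPKM, and reached 448 to 1387 FPKM with it (5.39 ± 0.34). Ltf, the iron binder lactotransferrin, was 0.0322 to 1.64 FPKM without and 10.8 to 168 FPKM with the transgene (4.59 ± 0.55). The WAP-domain proteins Wfdc18 (0.0848 to 0.638, then 19.4 to 245 FPKM) and Wfdc2 (4.56 to 31.2, then 61.6 to 1645 FPKM) rose by 5.93 ± 0.42 and 5.46 ± 0.66.

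The other genes of the top 12 were of mixed kind. Lman1l, a lectin related to the cargo receptor of the early secretory pathway, was 0.273 to 3.09 FPKM without and 34.2 to 298 FPKM with the transgene (6.2 ± 0.58). Otos, otospiralin, first known from the inner ear, was at 3 fragments or fewer in each library without the transgene and at 18.1 to 108 FPKM with it (5.59 ± 0.39). Serpinb11, a clade B serpin, rose by 5.23 ± 0.54, and Ly6c1, a GPI-anchored surface protein of endothelial and white blood cells, rose by 4.43 ± 0.49 from an already clear 16.4 to 35.7 FPKM. Spp1, osteopontin, was 0.116 to 0.768 FPKM without and 9.28 to 190 FPKM with the transgene (4.27 ± 0.58). All 12 kept an adjusted p under 0.05 with each library left out, after rescaling and with limma voom on the recovered fragments.

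**Figure D2:**
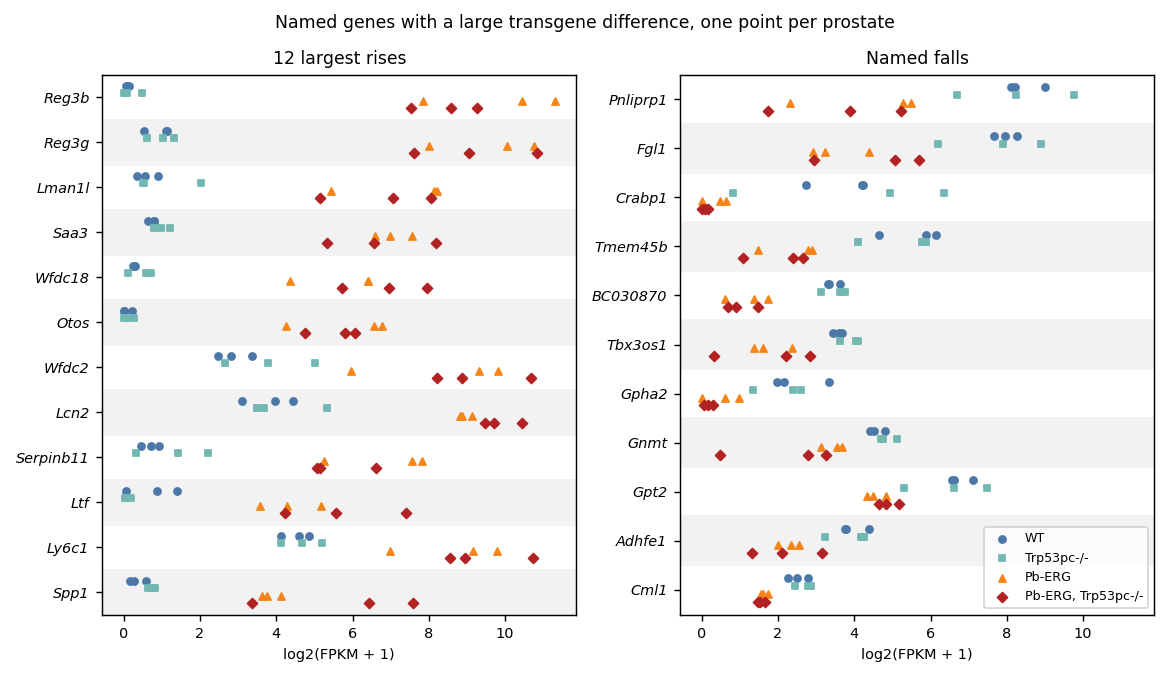
Level of the 12 largest rises (left) and the named falls (right) on the log2(FPKM + 1) scale, with 1 point per prostate and colour and shape for genotype. In each row the 6 transgene points (triangles and diamonds) lie on one side of the 6 others, as the choice of genes requires.

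Qsox1 was the most even of the large changes. It was 13.7 to 25.7 FPKM (median 20.2) without and 254 to 543 FPKM (median 390.4) with the transgene, a difference of 4.20 ± 0.15 (adjusted p 9.62e-08). The ratio of mean levels was 19.7, and Pb-ERG replicate 1, which was lowest for most higher members, was at 497 FPKM. The difference was 4.39 with Trp53 intact and 4.01 with Trp53 deleted, and it stayed between 4.14 and 4.28 with any library left out. Qsox1 was the only member of the endoplasmic reticulum folding list to rise. Of the 29 tested, Pdia2, a protein disulfide isomerase, fell by 1.51 on the log2 scale, and the chaperone Hspa5 was 654 to 2420 FPKM without and 633 to 3170 FPKM with the transgene (-0.21 ± 0.33). The list median was -0.11, against 0.26 for all genes. After median-of-ratios scaling 1 member was called higher and 8 lower.

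Of 5 falls at 0.001, 2 were predicted genes (Gm16063 and Gm436) and 3 are named genes. Tmem45b, a membrane protein, was 16.2 to 70.1 FPKM (median 55.9) without and 1.12 to 6.41 FPKM (median 4.77) with the transgene (-3.19 ± 0.42, adjusted p 0.00075). BC030870 went from 7.76 to 12.4 FPKM to 0.537 to 2.35 FPKM (-2.33 ± 0.21). Cml1, an N-acetyltransferase-like gene, went from 3.79 to 6.31 FPKM to 1.79 to 2.36 FPKM (-1.01 ± 0.13). The other named falls are large ones without overlap that passed 0.05 only. Among them, Pnliprp1, a pancreatic lipase-related protein, was 102 to 870 FPKM without and 2.31 to 43.5 FPKM with the transgene (-4.35 ± 0.72), and Fgl1, a secreted fibrinogen-like protein, was 72 to 472 FPKM and 6.53 to 50.8 FPKM (-3.77 ± 0.56). Crabp1, a retinoic acid binding protein, ranged widely without the transgene, from 0.778 to 81.4 FPKM, and was at most 0.551 FPKM with it (-3.66 ± 0.73). Its adjusted p was 0.0541 with voom.

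Among the other named falls, Gpt2, mitochondrial alanine aminotransferase, was 38.8 to 179 FPKM without and 19.0 to 35.0 FPKM with the transgene (-1.90 ± 0.31). Gnmt, glycine N-methyltransferase, was 20.3 to 33.6 FPKM and 0.402 to 11.8 FPKM (-1.91 ± 0.44), the lowest value being double replicate 3. Adhfe1, a mitochondrial alcohol dehydrogenase (-1.69 ± 0.29), fell too, as did the Tbx3 antisense RNA Tbx3os1 (-1.96 ± 0.36) and the hormone subunit Gpha2 (-1.95 ± 0.28). Without a statement on strand in counting, reads of Tbx3os1 and of genes it overlaps cannot be told apart.

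Gene lists were compared with the shares of all genes that rose (28.9%), fell (2.14%) or lay fully above (11.8%). The lists were chosen with earlier results of these data known, so they are descriptions and carry no test. Of 24 ETS factors tested, 17 rose and 1 fell, with a median difference of 0.54, and 6 lay fully above. Apart from Erg itself, Elf3, an epithelial ETS factor, was 5.50 to 9.13 FPKM without and 12.5 to 30.3 FPKM with the transgene (1.56 ± 0.17, adjusted p 0.000302). Elk3 (1.24 ± 0.34) and Ets1 (1.01 ± 0.20), both known from vessels, were 2.01 to 3.42 and 1.31 to 2.54 FPKM without and 3.64 to 29.9 and 2.96 to 7.02 FPKM with it. Ehf, another epithelial ETS factor, fell by 1.22 on the log2 scale. Elf5 was -2.42 ± 0.87 (adjusted p 0.054). After rescaling 10 rose and 2 fell.

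Of 26 genes tied to ERG in human or mouse prostate cancer, 16 rose and 1 fell (median 0.96), and 9 lay fully above. Plaur, the urokinase receptor, was 0.209 to 1.63 FPKM without and 5.99 to 54.7 FPKM with the transgene (2.87 ± 0.40, adjusted p 0.000988). Ezh2, the histone H3 lysine 27 methyltransferase, was 1.51 to 2.68 FPKM and 4.44 to 14.1 FPKM (1.74 ± 0.23). Sox9, a transcription factor of progenitor cells, was 2.19 to 5.77 FPKM and 6.69 to 19.0 FPKM (1.35 ± 0.27). Arhgdib, a small GTPase regulator of white blood cells, was 4.24 to 7.81 FPKM and 7.89 to 177 FPKM (2.03 ± 0.51), the top value being double replicate 3. Tmprss2 fell by 1.07, and Tff3 was at -1.12 without passing the test. After rescaling 8 rose and 1 fell. Without the 2 libraries that stood apart, 19 rose and 1 fell.

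Of 28 epithelial defence genes tested, 20 rose and none fell (8 at 0.001, a median of 1.86), 12 lay fully above, and after rescaling 17 rose. Beside the genes above, Cp, the copper oxidase ceruloplasmin, was 5.14 to 14.2 FPKM without and 74.0 to 361 FPKM with the transgene (3.93 ± 0.32). S100a8 (1.80 ± 0.66) and Hp did not pass the test. The summed level of the list was 133 to 1650 FPKM without and 1512 to 7225 FPKM with the transgene, so the sums overlapped through 1 Trp53pc-/- prostate.

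Of 39 chemokines and receptors tested, 29 rose and none fell (median 1.27), and 10 lay fully above. After rescaling 23 rose. Cxcl16, which binds T and NK cells, was 2.85 to 5.46 FPKM without and 9.58 to 48.2 FPKM with the transgene (2.28 ± 0.23, adjusted p 0.000171). Cxcl15 (3.34 ± 0.73) and Cxcl1 (2.05 ± 0.45), which attract neutrophils, were at most 1.35 and 0.161 FPKM without the transgene and reached 72.9 and 10.2 FPKM with it. Ccl5, which attracts T cells, was 0.720 to 4.0 FPKM and 4.16 to 35.7 FPKM (2.12 ± 0.41). Of 30 interferon response genes, 27 rose and none fell (median 1.68), yet only 4 lay fully above. After rescaling 23 rose and 1 fell. Ifitm3, a membrane barrier to viruses, was 66.5 to 152 FPKM without and 273 to 1028 FPKM with the transgene (2.98 ± 0.31, adjusted p 0.000182). Zbp1 (2.34 ± 0.40) and Ddx58 (1.68 ± 0.25), sensors of nucleic acids, and Gbp4 (1.5 ± 0.41), a GTPase, rose as well. Pb-ERG replicate 1 lay below the other 5 here: Isg15 was 3.41 FPKM at its lowest with the transgene, within the 1.98 to 6.97 FPKM of the other side. Mx1 was at -0.47 and did not pass the test.

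Of 30 cell division genes, 27 rose and none fell (median 1.13), and 19 lay fully above, so the list held more genes without overlap than any other list examined. Mki67, the proliferation antigen, was 0.188 to 0.462 FPKM without and 1.69 to 10.9 FPKM with the transgene (1.74 ± 0.27). Cdc20 was 0.270 to 1.55 and 1.61 to 27.5 FPKM, Ccnb2 0.315 to 0.831 and 1.24 to 23.7 FPKM, and Cdk1 0.663 to 1.85 and 2.0 to 23.2 FPKM. Double replicate 3 was highest in all 4, and without it and Pb-ERG replicate 1, 28 of the 30 rose and the median was 0.99. After rescaling 21 rose and none fell.

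Pyrimidine synthesis and Wnt target genes were followed because the study names them. It reports rises of Umps, Rrm1, Rrm2, Tyms and Ctnnb1 in tumours with the transgene and a Trp53 missense mutant. That genotype is not among these libraries, and the study reports no Ctnnb1 rise with the transgene alone. The contrast here is thus a different one. Of 24 pyrimidine genes, 10 rose and none fell (median 0.42), and 6 lay fully above. The subunits of ribonucleotide reductase Rrm2 (2.15 to 4.26, then 6.11 to 43.3 FPKM, 1.44 ± 0.38) and Rrm1 (4.92 to 7.95, then 9.02 to 27.5 FPKM, 0.89 ± 0.24), the kinase Uck2 (1.09 to 3.53, then 3.6 to 17.2 FPKM, 1.08 ± 0.25) and thymidylate synthase Tyms (1.27 to 2.0, then 2.17 to 6.56 FPKM, 0.59 ± 0.19) were fully above. Rescaling left 5 higher and 4 lower, and Rrm1 and Tyms lost the call (adjusted p 0.0882 and 0.171). The de novo enzymes Cad and Dhodh were at 0.82 and -0.35 and did not pass the test. Of 20 Wnt pathway and target genes, 7 rose and 2 fell, and the median of 0.26 lay beside the 0.26 of all genes and turned to -0.067 after rescaling. Cd44, a hyaluronan receptor, was 1.14 to 3.20 FPKM without and 4.33 to 29.7 FPKM with the transgene (2.71 ± 0.38), and Dkk2, a secreted Wnt modulator, 0.270 to 0.815 and 1.58 to 10.3 FPKM (1.84 ± 0.30). Ctnnb1, beta-catenin, was 101 to 137 FPKM and 132 to 303 FPKM (0.74 ± 0.17, adjusted p 0.00985), and its adjusted p was 0.106 after rescaling. The feedback inhibitor Nkd1 fell by 2.0 on the log2 scale, and Axin2 was at 0.14.

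Of 17 secretory products tested none rose and 3 fell, Sbp, Sbpl and Gsdma, and none lay fully below. Their summed level overlapped, at 53232 to 347273 FPKM without and 1305 to 68648 FPKM with the transgene. Sbp, spermine binding protein, was 582 to 163500 FPKM (median 28790) without and 1.01 to 4296 FPKM (median 144) with the transgene (-7.74 ± 1.86, adjusted p 0.0111). The ranges overlapped, since replicate 1 of Trp53pc-/- held the 582 FPKM and a pair of transgene prostates held 1248 and 4296 FPKM. Spink3, a secreted protease inhibitor, was 540.0 to 140700 FPKM without and 5.84 to 18030 FPKM with the transgene (-5.40 ± 1.94, adjusted p 0.0528). Of 8 markers of distal secretory luminal cells 1 fell (median -1.35). Their summed level was 48947 to 318759 FPKM without and 910 to 44602 FPKM with the transgene, without overlap of the sums, and replicate 3 of the double group was the lowest. Of 26 androgen response genes 6 rose and 3 fell. Steap4, a metalloreductase, was 2.98 to 7.55 FPKM without and 14.9 to 99.98 FPKM with the transgene (2.77 ± 0.43), Pmepa1 rose by 1.65 ± 0.32 and the fatty acid elongase Elovl5 by 1.03 ± 0.14, while Acsl3, Tmprss2 and Abcc4 fell. The list median of 0.23 turned to -0.12 after rescaling.

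Of 12 proximal luminal markers, 8 rose and none fell (median 1.6), and their summed level of 230 to 501 FPKM without the transgene did not reach the 1387 to 9718 FPKM found with it. Ly6a (Sca-1) was 43.1 to 129 FPKM without and 282 to 3855 FPKM with the transgene (3.94 ± 0.48, adjusted p 0.000549). Clu, clusterin, was 47.9 to 348 FPKM and 855 to 7983 FPKM (3.85 ± 0.55), and Ly6d was 1.01 to 10.4 and 11.9 to 180.5 FPKM (3.03 ± 0.56). Clu and Ly6a made up much of the summed level. They were 7983 and 1106 of 9718 FPKM in double replicate 1, and 855 and 282 of 1387 FPKM in Pb-ERG replicate 1. In WT replicate 2, the lowest sum, they were 47.9 and 71.0 of 230 FPKM. Krt4 and Krt7 rose, though not after rescaling, while Psca was at 0.66 and did not pass the test. Of 14 general luminal markers 5 rose and none fell, and Cd24a was 342 to 1251 FPKM without and 246 to 1066 FPKM with the transgene (-0.27 ± 0.40). Of 12 basal markers 4 rose, among them Krt17 (0.148 to 0.689, then 1.97 to 30.1 FPKM, 1.76 ± 0.46) and Sfn (1.05 to 2.89, then 4.16 to 9.33 FPKM, 1.31 ± 0.19). The defining basal genes Krt5, Krt14 and Trp63 were at -0.10, 0.39 and -0.16 and did not pass the test. Of 15 mucin and goblet genes 5 rose and 1 fell. Galnt6 (0.82 ± 0.26) and Clca1 (0.62 ± 0.16) were at most 3.83 and 1.71 FPKM, and Galnt6 lost its call with 1 library left out (adjusted p up to 0.0731 by limma). In the same list the sialyltransferase St3gal4 rose by 2.5 ± 0.51, and Agr2 fell by 0.86. Of 6 neuroendocrine markers 1 rose, Calca, which reached 1.87 FPKM, and Chga did not pass the test.

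**Figure D3:**
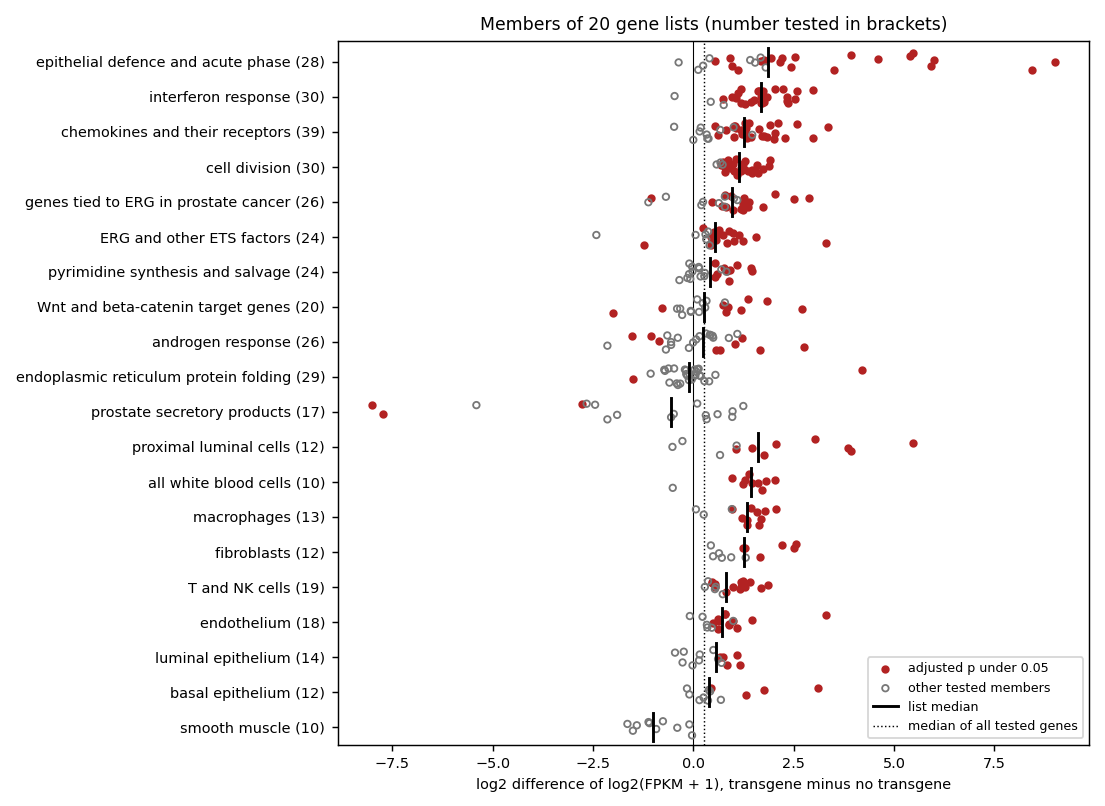
Log2 difference, transgene minus no transgene, of each tested member of 20 gene lists. Filled red points passed an adjusted p of 0.05, black bars are list medians and the dotted line is the median of all 17623 genes (0.26). Defence, interferon, chemokine and cell division lists lie almost wholly to the right, while all 10 smooth muscle members lie to the left of 0.

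Many markers of white blood cells rose, and in bulk tissue more cells of a type and more RNA per cell cannot be told apart. Of 10 genes shared by white blood cells 9 rose and none fell (median 1.43). Their summed level overlapped at 96.5 to 604 FPKM without and 158 to 1248 FPKM with the transgene. The remaining gene Cd52 (-0.51 ± 0.88) made up most of it in each library without the transgene, but not in all with it. In double replicate 3 Cd52 was 42.7 FPKM of a sum of 283 FPKM. Ptprc (CD45) was 0.656 to 1.56 FPKM without and 1.64 to 9.66 FPKM with the transgene (1.62 ± 0.31), and Laptm5 4.04 to 6.71 and 7.54 to 37.6 FPKM (1.81 ± 0.29). Of 13 macrophage markers 10 rose (8 after rescaling), and summed levels overlapped (91.0 to 202 and 165 to 867 FPKM). C1qb was 11.1 to 23.4 FPKM and 20.8 to 107 FPKM (1.79 ± 0.33), and Lyz2 rose by 1.69 ± 0.43. Of 19 T and NK cell markers 14 rose (11 after rescaling). Cd8b1 was 0.117 to 0.393 and 0.909 to 3.26 FPKM (1.28 ± 0.18), Cd8a rose by 1.19 ± 0.24 and Cd3e by 1.16 ± 0.23. Of 11 dendritic cell markers 9 rose, led by MHC class II genes, with Itgax at 0.144 to 0.411 and 0.729 to 5.44 FPKM (1.6 ± 0.25) and Xcr1 at 0.55 ± 0.16. Of 10 B and plasma cell markers 4 rose, Sdc1 by 1.62 ± 0.34 and Fcer2a from at most 1 fragment to 1.30 FPKM at its highest, and of 7 neutrophil markers 4 rose, Retnlg by 0.97 ± 0.18 and Cxcr2 by 0.53 ± 0.14. The part of these markers in the rises of chemokines, interferon genes and Arhgdib was not tested.

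Stroma moved unevenly. Of 12 fibroblast markers 6 rose (median 1.26), and summed levels overlapped (459 to 838 and 745 to 2200 FPKM). Col1a1 was 3.47 to 6.38 FPKM without and 9.98 to 116 FPKM with the transgene (2.56 ± 0.47), Col3a1 and Col1a2 rose by 2.5 ± 0.48 and 2.20 ± 0.35, and Pdgfrb by 1.23 ± 0.23, while Dcn and Dpt did not pass the test. Of 18 endothelial markers, Erg among them, 12 rose (median 0.71), but only 3 after rescaling. Plvap was 3.44 to 6.16 and 7.09 to 15.4 FPKM (0.99 ± 0.19), and Eng rose by 0.90 ± 0.18 with an adjusted p of 0.0697 after rescaling. Emcn was at -0.09. None of 10 smooth muscle markers passed the test (median -1.01). Acta2 was 460 to 868 FPKM without and 27.7 to 648 FPKM with the transgene (-1.09 ± 0.68), and Tagln was 396 to 1047 and 52.7 to 659 FPKM (-1.12 ± 0.57).

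Transcripts known from neighbouring organs and other tissue varied between libraries. Seminal vesicle genes spanned orders of magnitude on both sides, Svs4 from 26.8 to 5842 FPKM without and from 1.23 to 34930 FPKM with the transgene and Svs5 from 237 to 8572 and from 0.221 to 18230 FPKM, and none of 8 passed the test. Neither did any of 5 urothelial, 7 adipocyte or 8 nerve markers. Upk1a and Upk1b were at 0.06 and -0.60, Fabp4 and Cfd at 0.29 and 0.45, and Mbp at 0.36. Of 10 skeletal muscle markers 1 rose. Acta1 was 60.5 to 185 and 19.0 to 140 FPKM (-0.78 ± 0.33), while Tnnt3 was at most 1.04 FPKM in 11 libraries and 160.5 FPKM in double replicate 3. Whether these tissues were present, and their part in the differences, was not tested.

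**Figure D4:**
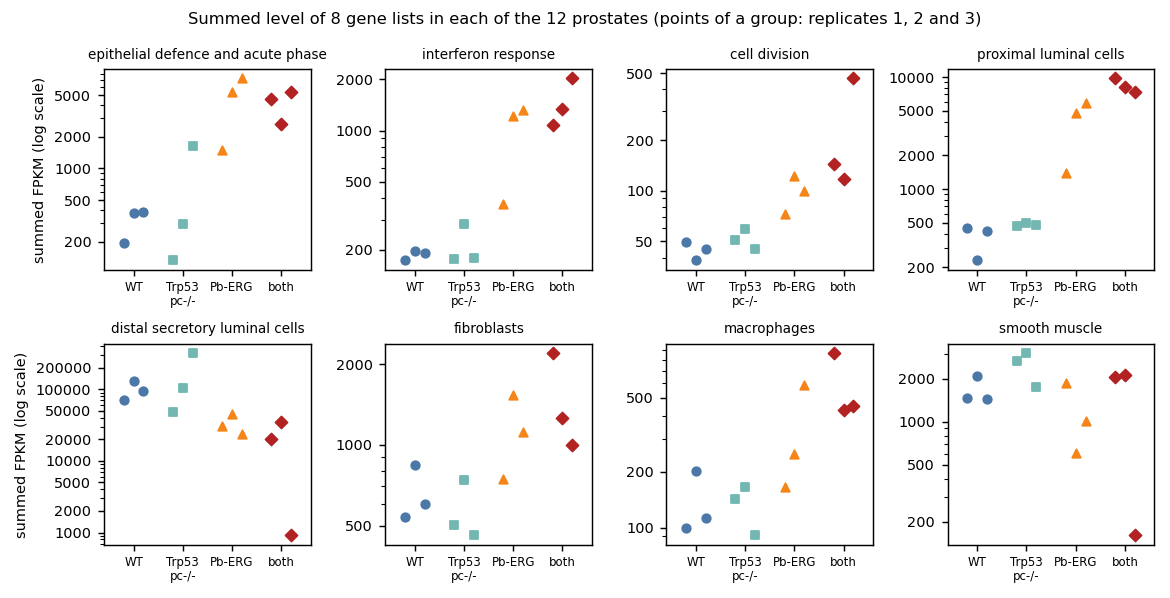
Summed FPKM of 8 gene lists in each of the 12 prostates on a log axis, with 3 points per genotype for replicates 1, 2 and 3 and "both" for Pb-ERG, Trp53pc-/-. The sums of proximal luminal, cell division and interferon lists lie higher in all 6 transgene prostates, the distal secretory sum lies lower in all 6, and macrophage, fibroblast and smooth muscle sums overlap. Clu and Ly6a made up much of the proximal luminal sum.

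The transgene contrast can be made separately in each Trp53 state, and these differences share no library. Their calls are not independent, since a common estimate of the spread from all 12 libraries serves both. With Trp53 intact 353 genes rose and 31 fell (2.18% of genes tested), and with Trp53 deleted 3289 rose and 181 fell (19.7%). At 0.001 the counts were 2 and 0, and 40 and 0. After median-of-ratios scaling the counts at 0.05 were 196 higher and 77 lower with Trp53 intact, and 1458 and 1116 with Trp53 deleted. Of the 353 genes that rose with Trp53 intact, 351 had a positive difference with Trp53 deleted (99.4%, against 76.8% of all genes) and 294 rose there too (83.3%). Those 294 were 8.94% of the 3289. Of the 31 that fell, 30 were negative in the deleted state (96.8%, against 23.2%) and 17 fell. Of the 3289, 3179 were positive in the intact state (96.7%, against 75.6%). The difference between the effects passed 0.05 for 0 genes by limma, with 1133 genes at an unadjusted p under 0.05 (6.43% of genes tested). Without Pb-ERG replicate 1 it passed for 8 genes, and with library weights, which gave Pb-ERG replicate 1 a weight of 0.393 and double replicate 3 a weight of 0.189, for 2641.

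**Figure D5:**
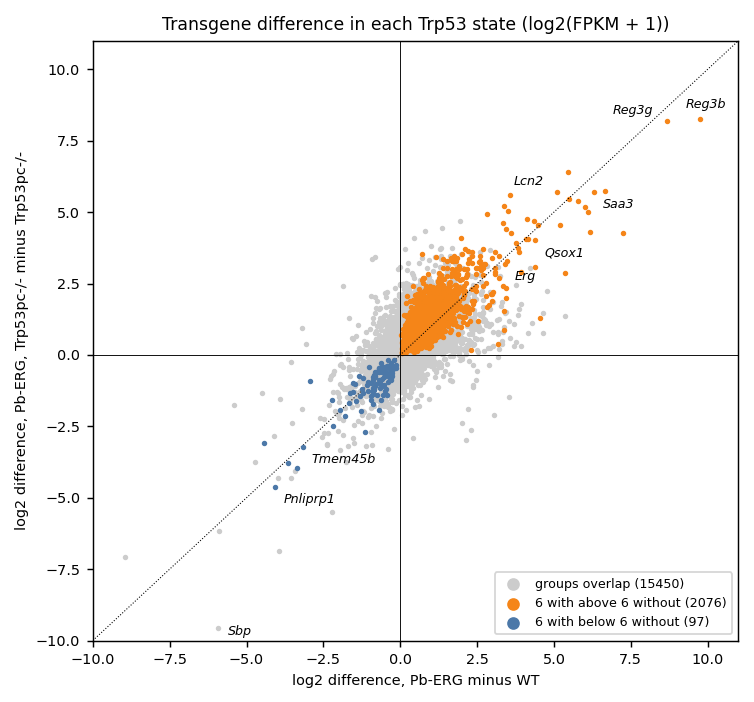
Log2 difference of every tested gene in the Trp53-intact comparison (x axis) and the Trp53-deleted comparison (y axis). Orange marks the 2076 genes fully above, blue the 97 fully below and grey the rest, and the dotted line is equality. Qsox1, at 4.39 and 4.01, lies near that line.

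The genes with the smallest p for a difference between Trp53 states are described without a call. Dpysl3, a cytoskeletal protein of neurons, was 5.17 to 5.31 FPKM in WT and 6.36 to 9.43 FPKM in Pb-ERG, and 3.14 to 4.07 FPKM in Trp53pc-/- and 16.4 to 20.6 FPKM in double prostates. Its transgene difference was 0.48 with Trp53 intact and 2.11 with Trp53 deleted (unadjusted p 2.23e-05 for the difference). Stra6, a retinol transporter, was 2.04 to 4.45 FPKM in WT and 2.59 to 3.97 FPKM in Pb-ERG, against 1.15 to 2.39 FPKM in Trp53pc-/- and 13.1 to 32.6 FPKM in double prostates (-0.07 and 3.02). Aqp3, a water and glycerol channel, stayed under 1 FPKM in every library, and its differences were 0.04 and 0.82. None of these 3 passed adjustment over all genes.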

How the data were processed

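Total RNA of 12 prostates was sequenced as paired ends on an Illumina HiSeq after TruSeq library preparation, and the authors aligned reads to mm10 with STAR (version 2.5.2b per the submitters' processing notes). The authors deposited FPKM values per gene, with no counts. All values of the 41042 genes came out as whole fragments (100% within 0.0001), which gave library totals and allowed voom as an alternative. Genes with 10 fragments or more per median library in at least 3 libraries and 15 in all were kept, 17623 genes. Values as log2(FPKM + 1) were fitted with limma 3.58.1 (R 4.3.3) on transgene and Trp53 status, and within Trp53 states on 4 group means, with Benjamini-Hochberg adjustment. Single values used a two-sided exact permutation test within Trp53 states. Alternatives were other scalings, pseudocounts, filters, weights and blocks, and each library left out. Named genes were Erg and Trp53, the 12 largest rises and falls without overlap (adjusted p under 0.001, then under 0.05, predicted genes skipped), up to 4 non-overlapping members of each list or else its 2 most abundant, 3 genes by difference between Trp53 states, and genes at the limit. A few genes that the rule names are not reported here. Other genes named were chosen after their values were seen. Members and lists were chosen with earlier results of these data known. The labels give replicate numbers and the study counts mice, so each library was taken as 1 mouse. The p-values weigh a difference against the spread between these libraries.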

Additional observations from a re-analysis of the deposited data

Results flagged for a closer look

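Within the 6 libraries of each side, a value was singled out where its gap to the nearest other library, on the log2(value + 1) scale, was a larger share of the range than Dixon's limit allows for 6 samples. Of 280 groups tested 35 were singled out, and chance alone gives about 1 in 20.

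Most such values belonged to double replicate 3. It was highest of the 6 transgene libraries for Cdc20 (27.5 FPKM), Ccnb2 (23.7 FPKM), Cdk1 (23.2 FPKM), Rrm2 (43.3 FPKM), Rrm1 (27.5 FPKM), Tyms (6.56 FPKM), Krt17 (30.1 FPKM), Galnt6 (3.83 FPKM), Calca (1.87 FPKM) and the muscle gene Tnnt3 (160.5 FPKM). Its summed level of cell division genes (465 FPKM) and of genes tied to ERG (1071 FPKM) was highest too. It was lowest for Acta2 (27.7 FPKM), Limch1 (4.69 FPKM), Gnmt (0.402 FPKM) and the sums of secretory products (1305 FPKM), androgen response genes (828 FPKM) and distal secretory markers (910.1 FPKM).

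Pb-ERG replicate 1 was lowest of the 6 for Elf3 (12.5 FPKM), Ifitm3 (273 FPKM), Cd44 (4.33 FPKM) and the sums of interferon response genes (372 FPKM), proximal luminal markers (1387 FPKM) and dendritic cell markers (169.6 FPKM). Double replicate 1 was highest for the nerve and glia sum (53.7 FPKM).

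Among the libraries without the transgene, Trp53pc-/- replicate 3 was lowest for Trp53 (5.32 FPKM) and Smndc1 (8.79 FPKM) and highest for Lman1l (3.09 FPKM). Trp53pc-/- replicate 2 was highest for Reg3b (0.400 FPKM), Cdk1 (1.85 FPKM) and the interferon sum (282 FPKM). WT replicate 2 was lowest for Clu (47.9 FPKM) and the proximal luminal sum (229.9 FPKM), WT replicate 1 highest for the basal sum (144 FPKM) and WT replicate 3 highest for Fcer2a (0.0166 FPKM, 1 fragment).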

How the results depend on the processing

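The 205 calls at 0.001 became 119 after median-of-ratios scaling (104 shared), 120 after scaling without the 17 abundant genes, 349 with a pseudocount of 0.1, 97 without a filter, 1700 with library weights, 167 with voom (149 shared), 5476 at 0.05, and 61 to 1048 with any library left out, 1048 without Pb-ERG replicate 1. Without Pb-ERG replicate 1 and double replicate 3, left out together after seeing the data, they were 1415. The 2173 genes without overlap became 5151 without that pair and 2267 to 4539 with any library left out. That count cannot fall when libraries are left out, so the direction of this change was fixed in advance. With Trp53 intact the 384 calls at 0.05 became 654 (pseudocount 0.1), 205 (no filter), 8321 (weights), 5638 (without the pair), 2 (at 0.001) and 59 to 3277 (each library left out). With Trp53 deleted the 3470 calls became 8634 (weights), 40 (at 0.001) and 1516 to 4277. The difference between states, 0 genes, became 1 (no filter), 2641 (weights), 91 (without the pair) and 0 to 8. The cause of these changes was not tested.

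Replicate numbers are shared by the genotypes in the labels and nothing in the labels says that a number marks a shared litter or day. Deviations of same-numbered libraries from their genotype means had an r from -0.237 to 0.370 (median 0.0905, 18 pairs). The median was -0.054 over 36 pairs of different number. Deviations within a genotype sum to 0, which pushes pairs of different number to the opposite sign, so the latter median is no independent reference. All 3 same-numbered pairs of WT and Trp53pc-/- were above 0.1 (0.179, 0.218 and 0.240), but those of WT and Pb-ERG were -0.0025, 0.098 and -0.237. With the replicate block the 205 calls became 108, of which 95 were shared, and the counts within Trp53 states were 332 and 2889.

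List medians that turned by more than the spread between replicates were androgen response, at -0.12 after median-of-ratios scaling and -0.038 without the abundant genes, and Wnt genes, at -0.067 after median-of-ratios scaling. Medians of urothelium (-0.052) and of nerve and glia (-0.076) also turned after median-of-ratios scaling, by less than that spread, as did skeletal muscle without the pair (-0.00039) and the seminal vesicle and adipocyte lists with some libraries left out. Medians after median-of-ratios scaling and without the abundant genes were 0.28 and 0.33 for ETS factors, 0.64 and 0.70 for genes tied to ERG, 0.024 and 0.083 for mucins, -0.48 and -0.39 for folding, 0.055 and 0.14 for pyrimidine genes and 0.18 and 0.27 for luminal markers. The endothelial median was 0.41 after median-of-ratios scaling, and the Wnt median 0.014 without the abundant genes. With a pseudocount of 0.1 medians were 0.94 for ETS factors, 2.86 for defence, 2.17 for chemokines, 1.94 for cell division, 2.25 for proximal luminal, 2.11 for neutrophil, 1.68 for T and NK cell, 1.63 for B cell, 1.90 for dendritic cell and 1.99 for white blood cell markers. The mean in place of the median was 2.76 for defence, 1.09 for dendritic cells and 0.37 for Wnt genes, and the Wnt median was 0.17 without the pair. With each library left out medians were 0.65 to 1.10 for genes tied to ERG and 0.18 to 0.32 for Wnt genes. No named gene with an adjusted p under 0.05 changed sign under the alternatives run. Krt18, Upk1a, Fabp4, Svs4, Cd24a and Cfd, which did not pass, changed sign under at least 1 of them.

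Every library held 19747635 fragments or more. The comparisons within Trp53 states rest on 3 mice per genotype.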

Other observations

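The genes of this section were chosen after their values were seen, so their values are descriptions. Counts stand beside the shares of all genes tested that rose (28.9%) or fell (2.14%). Of 25 genes of branched-chain amino acid breakdown tested none rose, 10 fell and 15 did not pass, and 20 had a negative difference (median -0.34, and -0.68 after median-of-ratios scaling). Bcat2, the mitochondrial aminotransferase of the pathway, was 57.0 to 87.3 FPKM without and 11.9 to 54.0 FPKM with the transgene (-1.30 ± 0.26). Dbt, a subunit of the branched-chain keto acid dehydrogenase, was 25.4 to 35.5 FPKM and 7.57 to 19.8 FPKM (-1.05 ± 0.18). Pcca, Ivd and Acad8 also lay fully below, with differences of -0.56, -0.49 and -0.36.

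Erg's neighbours on chromosome 16 were examined within 1000 kb. Of 30 genes 18 were tested, of which 3 rose, 1 fell and 14 did neither. Over all genes tested 28.9% rose and 2.14% fell. Kcnj15, a potassium channel 58.9 kb away, was 0.10 to 1.28 FPKM without and 7.27 to 41.7 FPKM with the transgene, and it rose by 3.79 ± 0.31 (limma adjusted p 5.5e-05). Ets2, 115 kb away, was 14.5 to 22.5 FPKM and 22.3 to 41.2 FPKM and rose by 0.88 ± 0.16, its ranges overlapping.

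Genes known from endothelium but outside the marker list were picked because they rose. Ecscr was 3.93 to 9.45 FPKM without and 20.7 to 111 FPKM with the transgene (3.35 ± 0.32), and Pde2a was 3.70 to 10.5 FPKM and 36.3 to 134 FPKM (2.95 ± 0.31). Thsd1, Afap1l1, Slco2a1 and Palmd rose by 2.16, 2.96, 2.91 and 2.13. All 6 rose after rescaling too, while Emcn, Tek and Flt1 of the marker list did not pass the test. Of 13 tested Ly6 family genes 8 rose, among them Ly6k (2.62 ± 0.48). Of 11 WFDC genes 4 rose, against 28.9% of all genes tested, and Wfdc3 fell by 3.92 on the log2 scale.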
